A study of Mus musculus with 5 samples.

Results

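Genes for 9 secreted proteins of the extracellular matrix were followed in RNA from mouse mitral valve leaflets: Ctgf, Cyr61, Nov, Wisp1 and Wisp2 of the CCN family, with Postn, Tgfbi, Sparc and Fn1. They were taken from the deposited gene table by symbol, and all 9 were found among its 24062 genes and passed the filter on low counts. The 5 libraries are 2 titled wild type (WT) and 3 titled knockout (KO) for Ift88, which encodes a protein of the transport machinery inside cilia. The sample descriptions give NfatC1Cre, a driver of the endocardial lineage, to every animal in both groups. They assign floxed Ift88 (Ift88f/f) to the WT group and Ift88+/+ to the KO group, the reverse of what the titles imply, and the groups used here follow the titles. Since the driver acts in one lineage, other cells of a KO leaflet may keep the intact gene. Age, sex, strain and whether each library came from 1 animal were not given in these sources, so p-values reflect the spread among these samples alone, part of which may be technical.

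CCN proteins are matricellular proteins, which means that they signal from the matrix rather than build it. They bind integrins, proteoglycans and growth factors. Ctgf and Cyr61 are widely used as readouts of the transcriptional co-activators YAP and TAZ, which act through the TEAD factors, and Ctgf is also induced by TGF-beta. Periostin (Postn) and the TGF-beta-induced protein (Tgfbi) share fasciclin domains. Periostin is a classical product of valve interstitial cells and is needed for the maturation of valve leaflets. Sparc binds collagen and calcium, and fibronectin (Fn1) is assembled into fibrils onto which collagens and other matrix proteins are laid.

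The promoters of the members are shown for the letters they hold near the start of transcription. RefSeq promoter windows (GRCm38.p6) matched 4 of the 9 genes, Cyr61, Postn, Tgfbi and Sparc, and Ctgf, Nov, Wisp1, Wisp2 and Fn1 were not matched. Below are the 250 bases before the start for Cyr61, a TEAD target, at chr3:145649986-145650235 on the minus strand, and for Postn, the member next to Sparc in level, at chr3:54360857-54361106 on the plus strand. Each is read 5′ to 3′ on the strand of its gene, and capitals mark CATTCC, the core letters bound by TEAD factors, and TATAAA, the TATA box.
Cyr61: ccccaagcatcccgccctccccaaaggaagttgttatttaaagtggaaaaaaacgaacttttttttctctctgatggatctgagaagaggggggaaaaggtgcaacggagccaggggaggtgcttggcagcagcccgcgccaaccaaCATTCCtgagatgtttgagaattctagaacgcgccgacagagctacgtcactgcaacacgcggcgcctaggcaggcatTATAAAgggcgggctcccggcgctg
Postn: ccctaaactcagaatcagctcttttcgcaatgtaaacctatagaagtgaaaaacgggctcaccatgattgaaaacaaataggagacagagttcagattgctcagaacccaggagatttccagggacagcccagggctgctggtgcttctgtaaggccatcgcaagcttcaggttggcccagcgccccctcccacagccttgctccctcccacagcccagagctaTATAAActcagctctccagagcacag
Both strands were searched, so that GGAATG and TTTATA also counted. In the Cyr61 window 97 bases lay between CATTCC and the start, and 19 between TATAAA and the start. The Postn window held TATAAA, with 20 bases between it and the start, and no CATTCC. A further Postn window at an upstream start held neither set of letters, and the same was true of the Tgfbi and Sparc windows. Over 32851 RefSeq windows of the same length, 12.6% held CATTCC and 12.4% held TATAAA. The AP-1 letters TGANTCA were in 6.75% of these windows and in none of the 5 windows of the members. These are matches of letters and not measured binding sites.

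Library totals lay between 23361414 and 53789026 counted reads, and levels are given as CPM, reads of a gene per 1000000 reads of its library after scaling by the trimmed mean of M-values (TMM). Ift88 itself had WT values of 7.53 and 19.8 CPM and KO values of 3.0, 3.91 and 0.409, so the KO libraries all lay below the WT libraries. That order goes with the titles and against the alleles in the descriptions, but it rests on this gene alone. The Ift88 log2 fold change was -2.48 (SE 1.125, unadjusted p = 0.0685, adjusted p = 0.81, edgeR quasi-likelihood test). Of the 14244 genes tested, 1575 likewise had all KO libraries below all WT libraries. The WT libraries were the least alike of all pairs, with a Pearson correlation of log2 CPM across genes of 0.787. Pairs of KO libraries ran from 0.879 to 0.921, and WT replicate 1 with KO replicate 1 reached 0.891. WT replicate 2 also stood apart in its cardiomyocyte markers. These 10 genes summed to 57310 CPM in WT replicate 1 and 99.4 in WT replicate 2, and to between 26380 and 33460 in KO. One of them, Mb, had no read in WT replicate 2, and 1 of the 10 had all KO libraries above all WT libraries, as did 13.5% of all genes tested, the share against which the marker counts here are read. Interstitial cell markers were present throughout, at 2457 and 6812 CPM in WT and 6539 to 9576 in KO, and 6 of these 10 had all KO libraries above all WT libraries. The 10 endothelial and endocardial markers summed to 331 and 2942 CPM in WT and 1811 to 2856 in KO, with 4 of them higher in every KO library. For interstitial and for endothelial markers alike, WT replicate 1 had the lowest sum, while WT replicate 2 lay within or above the KO range. Every member except Wisp1 was also lowest in WT replicate 1, and the part of these markers in that was not tested. Macrophage and leukocyte markers were low in both groups, at 173 and 227 CPM in WT and 121 to 254 in KO for 7 genes, of which 1 was higher and 1 lower in all KO libraries. Among these, Itgam had no read in either WT library and Ptprc none in KO replicate 3. The 6 smooth muscle and myofibroblast markers summed to 2300 and 680 CPM in WT and 1384 to 3062 in KO, with 2 higher in all KO libraries. KO replicate 2 stood apart in its 6 epicardial and mesothelial markers, at 214 CPM against 4.91 to 33.4 in the other libraries, and Upk3b and Lrrn4 had no read in either WT library. Adipoq, Cfd and Cidec of adipocytes had no read in any library. The 4 globin genes looked for, which have near-identical copies, were listed at 0 throughout, while Alas2 of red blood cell precursors had WT values of 92.6 and 2.60 CPM and KO values of 34.7, 8.28 and 0. In bulk RNA, fewer cells of a type and less RNA per cell cannot be told apart, and the part that cell composition plays in the results below was not tested.

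**Figure D1:**
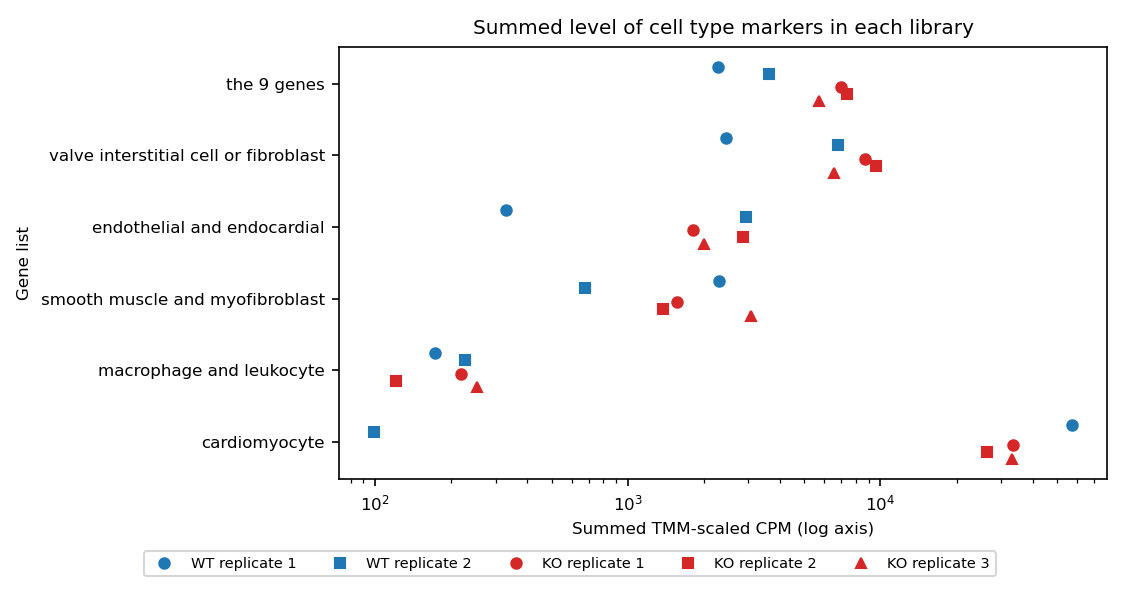
Summed TMM-scaled CPM (log axis) of the 9 genes and of 5 lists of cell type markers in each library, with WT libraries in blue and KO libraries in red. Cardiomyocyte markers stand at 99.4 in WT replicate 2 and at 26380 or above in the other libraries, while the 9 genes together are above both WT libraries in all 3 KO libraries.

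Together the 9 genes had WT values of 2279 and 3635 CPM and KO values of 6998, 7368 and 5717, so that the groups did not overlap. The means were 2957 ± 959 (SD, n = 2) and 6694 ± 867 (SD, n = 3). Sparc and Postn made up most of this sum. All 9 genes had a positive log2 fold change of KO over WT, against 49.4% of the 14244 genes tested, and their median was 1.01, against -0.01 over all genes tested. Their median was 0.67 if WT replicate 1 was left out, with 6 of the 9 positive, 2.61 if WT replicate 2 was, 1.62 by limma-voom and 0.66 once a trend with transcript length was removed. The groups did not overlap for 5 of the 9 (Ctgf, Postn, Tgfbi, Sparc and Fn1), which is 55.6% of them, against the same 13.5% of all genes tested. For Cyr61, Nov, Wisp1 and Wisp2 at least 1 KO library lay below a WT library. None of the 9 passed correction in edgeR's quasi-likelihood test, which called 0% of all genes tested at an adjusted p of 0.05. At an unadjusted p of 0.05 it gave 2 of the 9, Ctgf and Postn (22.2%), against 4.57% of all genes tested in that direction. Limma-voom called 0 of the 9 after correction, and DESeq2's Wald test called Ctgf, where it called 1.6% of genes. With 2 libraries against 3, an exact two-sided rank-sum test cannot give a p below 0.2.

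**Figure D2:**
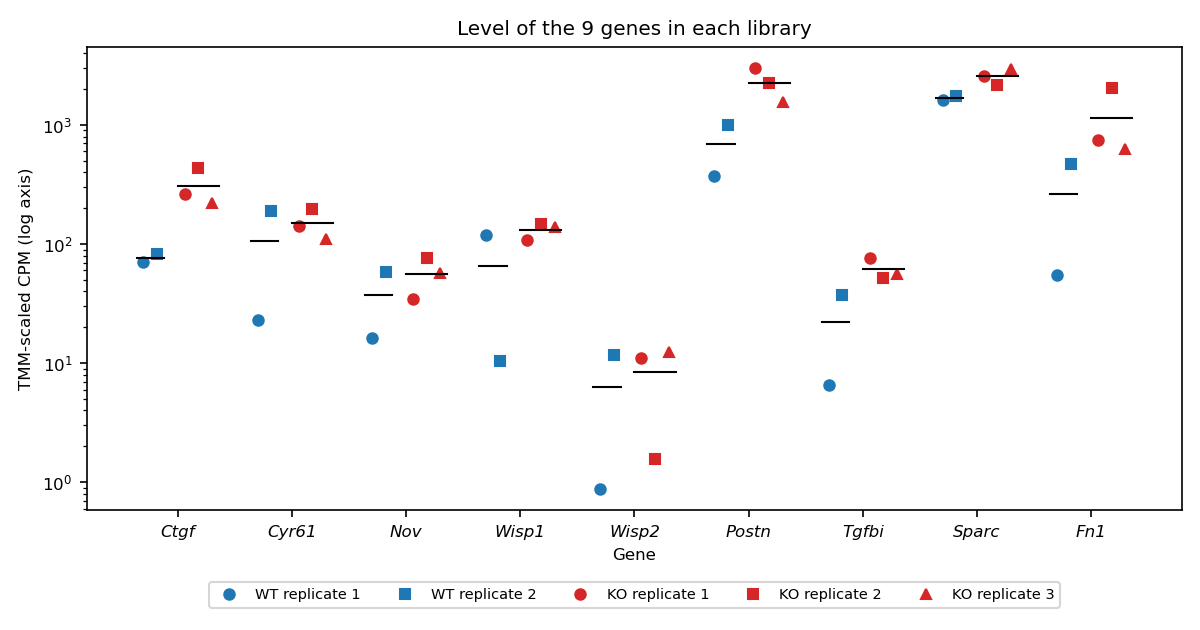
TMM-scaled CPM (log axis) of each of the 9 genes in the 2 WT libraries (blue) and the 3 KO libraries (red), with black lines at the group means and no error bars. For Ctgf the WT libraries lie together at 70.9 and 82.8 below all KO libraries. For Cyr61, Nov, Wisp1, Wisp2, Tgfbi and Fn1 the WT libraries lie further apart on this axis than the group means do.

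Ctgf, which encodes connective tissue growth factor and lies on chromosome 10 at 24595442 to 24598683 of GRCm38 on the plus strand, had the most even WT values among the CCN genes and stood well above them in KO. Values of 70.9 and 82.8 CPM in the WT libraries compared with 265, 439.9 and 223 in the KO libraries, given here and below in replicate order. The lowest KO library was 2.69 times the highest WT library, and the WT libraries differed from each other 1.17-fold. It averaged 76.9 ± 8.38 (SD, n = 2) in WT and 309 ± 115 (SD, n = 3) in KO, a 4.02-fold difference. The log2 fold change was 2.01 (SE 0.43), with an unadjusted p of 0.00324 that ranked 41 of 14244 and an adjusted p of 0.81 in edgeR's quasi-likelihood test. DESeq2 gave 1.94 (SE 0.47) with an adjusted p of 0.00603. Leaving out 1 library at a time left the edgeR estimate between 1.67 and 2.20. An antisense transcript, Gm15270, shares 665 of the 2861 exonic bases of Ctgf in the annotation and has no row of that name in the gene table. The library kit does not mark strand, so reads of that transcript may be counted as Ctgf and cannot be told apart there.

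Cyr61 encodes the other CCN protein commonly read as a YAP and TAZ target. It lies on chromosome 3 at 145646976 to 145649981 on the minus strand. The WT libraries read 22.8 and 189 CPM, an 8.26-fold difference within the group, and the KO libraries 142, 197 and 111. WT replicate 2 thus lay inside the KO range and WT replicate 1 far below it. WT replicate 1 is also the library with the least interstitial and endothelial marker RNA, whose part in the Cyr61 values was not tested. The log2 fold change of Cyr61 came to 0.50 (SE 0.83, adjusted p = 0.96, edgeR quasi-likelihood test). With WT replicate 1 left out it was -0.36, and with WT replicate 2 left out it was 2.72, so its direction rested on which WT library was present. The ratio of Ctgf to Cyr61 in CPM per kilobase was 2.52 and 0.356 in WT and 1.51, 1.81 and 1.64 in KO, and the KO ratios lay between those of the WT libraries.

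Nov, a CCN protein that signals through integrins and Notch1, followed Cyr61 in having a low value in WT replicate 1. It lies on chromosome 15 at 54745702 to 54754039 on the plus strand. Nov had WT values of 16.2 and 58.5 CPM and KO values of 34.6, 75.8 and 57.4, so the groups overlapped. Its log2 fold change was 0.58 (SE 0.65, adjusted p = 0.93, quasi-likelihood F test of edgeR), and -0.10 without WT replicate 1.

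Wisp1 was first described as a Wnt-induced gene and lies on the same chromosome at 66891320 to 66923201 on the plus strand. Its WT libraries were ordered the other way round, with 119.5 CPM in WT replicate 1 and 10.4 in WT replicate 2. The KO libraries stood at 107, 146 and 140, all close to WT replicate 1. Fitted to all libraries, its log2 fold change came to 1.01 (SE 0.92, adjusted p = 0.91, edgeR quasi-likelihood test). Without WT replicate 1 it was 3.63 (SE 0.48) with an adjusted p of 0.0167, in a fit that called 1.6% of genes and holds no spread between WT libraries, and without WT replicate 2 it was 0.13 (SE 0.36). Limma-voom with all libraries gave 2.22 (SE 0.87, unadjusted p = 0.0385, adjusted p = 0.70), and removing the trend with transcript length in edgeR gave 0.42. WT replicate 2, the library with low Wisp1, is also the one with 99.4 CPM of cardiomyocyte markers, and the part of that difference in the Wisp1 values was not tested.

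Wisp2, whose protein lacks the carboxy-terminal domain of the other CCN proteins, had the lowest levels. It lies on chromosome 2 at 163820861 to 163833146 on the plus strand. Wisp2 stood at 0.875 CPM in WT replicate 1, from 23 reads (95% exact Poisson interval 0.555 to 1.31, which covers counting error only), and at 11.7 in WT replicate 2. In KO it was 11.1, 1.56 and 12.4, so that 1 library in each group was low. With all libraries the log2 fold change came to 0.41 (SE 1.36, adjusted p = 0.98, edgeR quasi-likelihood test), -0.51 when WT replicate 1 was left out and 3.25 when WT replicate 2 was. Wisp3, the remaining CCN gene, had 0 reads in 4 libraries and 0.063 CPM in KO replicate 1, which is below the 0.0947 CPM that a floor of 3 reads represents there.

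As a group, the CCN genes had a composition that differed more between the WT libraries than among the KO libraries. Levels per kilobase of the longest annotated transcript were used to compare genes with each other. Ctgf made up 41% of the summed CPM per kilobase of the 5 CCN genes in WT replicate 1 and 21.3% in WT replicate 2, and 49.2, 53.5 and 45.0% in KO. Cyr61 made up 16.3 and 59.9% in WT and 32.5, 29.6 and 27.5% in KO. Wisp1 had 33.8 and 1.31% in WT and 9.74, 8.68 and 13.8% in KO. For Cyr61 and Wisp1 the KO shares lay between those of the WT libraries. The Ctgf share of all 3 KO libraries exceeded that of either WT library. Nov had 8.155 and 13.08% in WT and 5.576, 7.999 and 10.05% in KO. Wisp2 had 0.733 and 4.36% in WT and 2.99, 0.274 and 3.61% in KO. In the shares of Nov and Wisp2, KO replicate 2 thus lay below both WT libraries, as did KO replicate 1 for Nov.

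**Figure D3:**
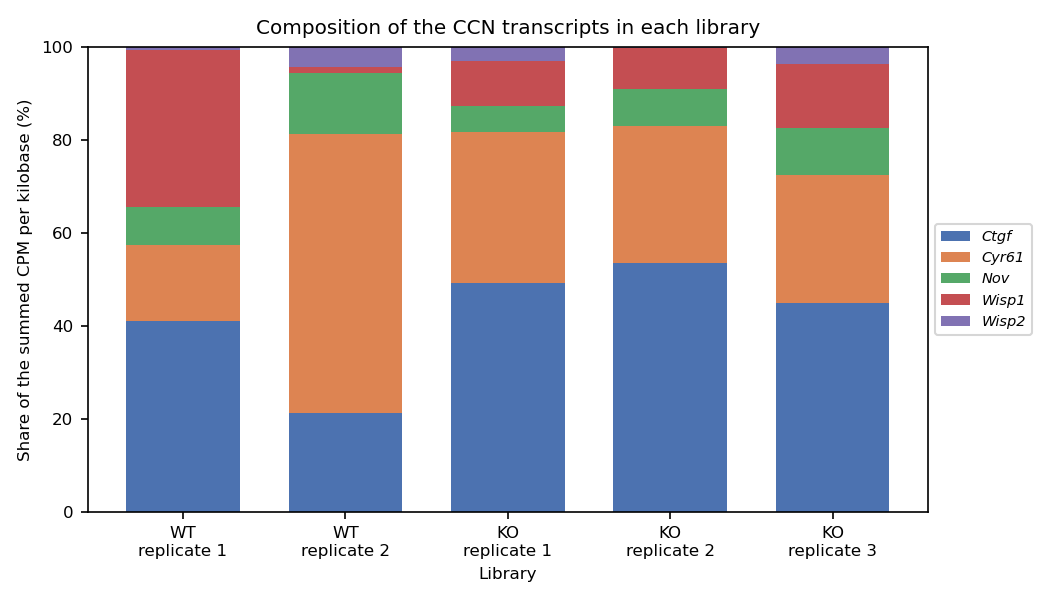
Share of each CCN gene (percent) in the summed CPM per kilobase of Ctgf, Cyr61, Nov, Wisp1 and Wisp2, as 1 stacked bar for each library. Cyr61 takes 59.9% in WT replicate 2 against 16.3% in WT replicate 1, and Ctgf takes 45.0 to 53.5% in the KO libraries.

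Postn, on chromosome 3 at 54361109 to 54391037 on the plus strand, read 374 and 1002 CPM in the WT libraries. In the KO libraries it read 3012, 2259 and 1560. The groups did not overlap, and the lowest KO library was 1.56 times the highest WT library. Means were 688 ± 444 (SD, n = 2) and 2277 ± 726 (SD, n = 3). Its estimate of the log2 fold change came to 1.73 (SE 0.59), with an unadjusted p of 0.0257 and an adjusted p of 0.81 in edgeR's quasi-likelihood test. It stayed positive without any 1 library, from 1.16 without WT replicate 1 to 2.61 without WT replicate 2, which is a move of more than 1.5 times. With the trend of transcript length removed it was 1.24, with an unadjusted p of 0.0848 by edgeR.

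Tgfbi, the other fasciclin-domain member, had the pattern nearest to Postn among the 9 members, with a root mean square difference of 0.39 between their centred log2 levels over the 5 libraries. The gene lies on chromosome 13 at 56609523 to 56639562 on the plus strand. It had WT values of 6.50 and 37.7 CPM and KO values of 76.6, 51.5 and 55.9. Every KO library was above both WT libraries, by at least 1.37 times, while the WT libraries differed 5.80-fold from each other. Its log2 fold change of 1.47 (SE 0.76, adjusted p = 0.82 by edgeR) ran from 0.67 without WT replicate 1 to 3.24 without WT replicate 2. Stab1 and Stab2, the other genes with fasciclin domains, which encode scavenger receptors, had log2 fold changes of 0.72 and 1.07 with overlapping groups. Leaving out WT replicate 1 gave 0.18 for Stab1 and 3.91 for Stab2, and leaving out WT replicate 2 gave 1.53 and 0.17.

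Sparc, on chromosome 11 at 55394500 to 55423183 on the minus strand, was the most abundant member per kilobase of transcript in every library and varied least. It had WT values of 1614 and 1770 CPM and KO values of 2599, 2150 and 2934. The groups did not overlap, and the lowest KO library was 1.22 times the highest WT library. Its means were 1692 ± 110 (SD, n = 2) and 2561 ± 393 (SD, n = 3), a 1.51-fold difference. On the log2 scale the fold change came to 0.60 (SE 0.38, adjusted p = 0.86, edgeR quasi-likelihood test), between 0.49 and 0.71 with any 1 library left out.

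Fn1, on chromosome 1 at 71585520 to 71653200 on the minus strand, had the largest fold change of the 9 in the fit to all 5 libraries and the widest spread among those whose groups did not overlap. It stood at 54.6 and 474 CPM in WT, an 8.68-fold difference. In KO it stood at 751, 2046 and 624, with KO replicate 2, the library with the most epicardial and mesothelial marker RNA, far above the others. The part of those markers, or of the low interstitial and endothelial markers in WT replicate 1, in the Fn1 values was not tested. The means were 264 ± 296 (SD, n = 2) and 1140 ± 787 (SD, n = 3). Its log2 estimate came to 2.11 (SE 1.03, adjusted p = 0.81, edgeR quasi-likelihood test). It was 1.23 if WT replicate 1 was left out, 4.38 if WT replicate 2 was and 1.38 if KO replicate 2 was. Fn1 has the longest transcript of the 9, at 8.315 kilobases, and once the trend of each library with transcript length was removed its log2 fold change was 0.98 (SE 0.91). An antisense gene, Apol7d, shares 292 of its 11685 exonic bases and was counted at 46 reads or fewer in each library.

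**Figure D4:**
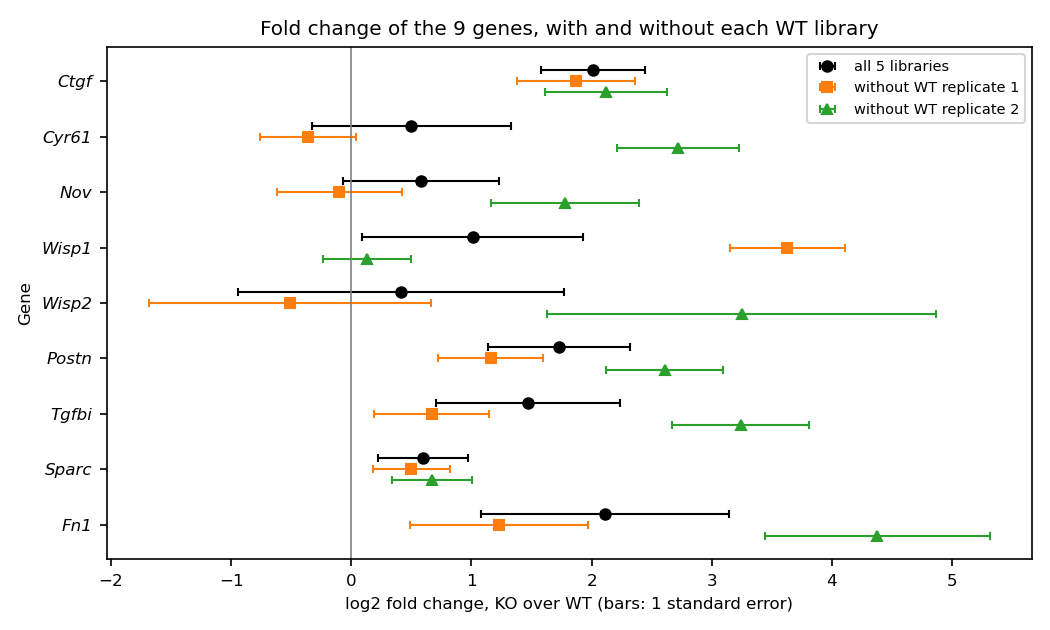
Log2 fold change of KO over WT for the 9 genes (points, bars of 1 standard error) from edgeR fits to all 5 libraries and to those without WT replicate 1 or WT replicate 2, the last 2 of which hold a single WT library. Ctgf and Sparc barely move between fits, whereas Cyr61 runs from -0.36 to 2.72 and Wisp1 from 0.13 to 3.63.

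Set in order by CPM per kilobase averaged over the 5 libraries, the members ran from Sparc (962) and Postn (314) through Fn1 (95), Ctgf (86.9) and Cyr61 (65.5) to Wisp1 (20.5), Nov (16.9), Tgfbi (15.2) and Wisp2 (4.37). Sparc was first and Postn second in all 5 libraries. Sparc ranked between 18 and 131 among the 14135 genes with a transcript length, and Postn between 111 and 1358. Fn1, Ctgf and Cyr61 changed places between libraries and did not differ beyond their spread, and the same held for Wisp1, Nov and Tgfbi. Fn1 was 6th of the 9 in WT replicate 1, 4th in WT replicate 2 and 3rd or 4th in KO. Wisp1 was 4th in WT replicate 1 and last in WT replicate 2. The ratio of Postn to Sparc per kilobase was 0.102 and 0.249 in WT and 0.510, 0.463 and 0.234 in KO, so that KO replicate 3 lay just below WT replicate 2.

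Receptors of these proteins were read from a list of 12 integrin, syndecan and scavenger or lipoprotein receptor genes. Of these, 11 had a positive log2 fold change, with a median of 0.99, and in 6 all KO libraries lay above all WT libraries. None passed correction (edgeR), and 2 had an unadjusted p under 0.05, both higher in KO. Of all genes tested, 49.4% were positive, 13.5% had all KO libraries above WT and 4.57% had such a p with higher levels in KO. Lrp1, an endocytic receptor that binds Ctgf, had WT values of 10.8 and 2.55 CPM and KO values of 47.8, 38.1 and 15.5, with a log2 fold change of 2.35 (SE 0.86). That estimate was 3.70 if WT replicate 1 was left out, 1.65 if WT replicate 2 was and 0.73 with the length trend removed. Itga6, an integrin chain that binds Cyr61 and laminin, had WT values of 32.6 and 56.2 CPM and KO values of 78.1, 99.3 and 91.7, with a log2 fold change of 1.01 (SE 0.39) that ran from 0.64 to 1.46 as 1 or the other WT library was left out.

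TGF-beta is a known inducer of Ctgf, Postn and Tgfbi. Of 12 listed TGF-beta ligands, receptors and SMADs, 10 had a positive log2 fold change (49.4% of all genes), with a median of 0.88. Groups did not overlap for 4 of them (13.5% of all genes tested), and 1, Tgfb2, had an unadjusted p under 0.05, where 1 of 12 is close to the 4.57% of all genes. This ligand of valve development had WT values of 21.6 and 61.1 CPM and KO values of 101, 169 and 91.5, with a log2 fold change of 1.54 (SE 0.58) that was 0.95 if WT replicate 1 was left out and 2.48 if WT replicate 2 was. Smad7, an inhibitor that TGF-beta itself induces, had WT values of 8.25 and 5.11 CPM and KO values of 11.4, 16.8 and 18.4, with a log2 fold change of 1.22 (SE 0.64).

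A list of 14 genes held YAP, TAZ, the TEAD factors, and the Hippo kinases and their partners, which restrain YAP and TAZ. Of these genes 13 had a positive log2 fold change (49.4% of all genes tested), with a median of 0.70. For 5 of them the groups did not overlap (13.5% of all genes tested). The smallest p-values in this list belonged to Nf2 and Mob1b, both of the restraining arm. Nf2 had WT values of 35.9 and 46.8 CPM and KO values of 73.6, 85.5 and 97.6, with a log2 fold change of 1.05 (SE 0.35). Mob1b had WT values of 26.0 and 27.1 CPM and KO values of 36.5, 109 and 177, with a log2 fold change of 2.02 (SE 0.69). With the length trend removed these were 0.64 for Nf2 and 0.85 for Mob1b, and neither kept an unadjusted p under 0.05 (0.0938 and 0.249, edgeR). The same removal gave unadjusted p-values of 0.0878 for Itga6 and 0.0921 for Tgfb2 (edgeR). Of 17 other YAP and TAZ target genes tested, 13 were positive, with a median of 0.59, 6 did not overlap, 3 had an unadjusted p under 0.05 and higher levels in KO, and none passed correction (edgeR). The matching shares of all genes tested were 49.4%, 13.5% and 4.57%. Amotl2, which encodes a scaffold that holds YAP at junctions, had WT values of 9.74 and 21.2 CPM and KO values of 43.6, 105 and 62.4 (log2 fold change 2.19, SE 0.60). Rbms3, which encodes an RNA-binding protein, had WT values of 33.9 and 39.6 CPM and KO values of 67.8, 84.9 and 75.7 (1.05, SE 0.34, and -0.0016 with the length trend removed). Leaving out WT replicate 1 gave a median of 0.08 for the target list, and leaving out WT replicate 2 gave 1.57.

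Relatives and partners of Sparc and fibronectin completed the lists. Of 7 genes with SPARC-like domains 5 were positive, with a median of 1.03 that was 2.12 by limma-voom, and 3 did not overlap, against 49.4% and 13.5% of all genes. None of them had an unadjusted p under 0.05 (edgeR), and Smoc1, Smoc2 and Spock3 had no read in at least 1 library. Fstl1, the most abundant of them, had WT values of 583 and 1395 CPM and KO values of 1870, 1706 and 1676 (log2 fold change 0.82, SE 0.48, and from 0.30 to 1.59 with a WT library left out). Spock2, a testican proteoglycan, was at 2.30 (SE 1.37) on the same scale, and from 1.40 to 4.83 with a WT library left out. Its levels were low, with WT values of 0.266 (7 reads) and 2.82 CPM and KO values of 4.29, 13.1 and 5.61. Of 10 fibronectin partners, which include fibrillar collagens, all were positive, with a median of 1.69, and 8 did not overlap between groups. At an unadjusted p under 0.05 there were 7, all higher in KO, and none passed correction (edgeR). Again 49.4% of all genes were positive, 13.5% did not overlap in this direction and 4.57% had such a p. The lists were chosen with earlier results of these data known, so these counts give no independent support. Col1a1, Col1a2 and Col3a1 are also among the interstitial cell markers counted earlier, so they enter both counts. Tnc and Col1a1 had the smallest p-values of the list, with log2 fold changes of 3.75 (SE 0.51) and 3.08 (SE 0.45). Without WT replicate 1 both passed in edgeR, with adjusted p-values of 0.0194 and 0.0445, in a fit with 1 WT library. DESeq2 called 3 genes of this list with all libraries, Col1a1, Col1a2 and Tnc, and 0 of the other lists, and limma-voom called 0 in any list. With the length trend removed, the list medians were 0.28 for receptors, 0.28 for the TGF-beta list, 0.35 for the Hippo list, 0.14 for YAP and TAZ targets, 1.17 for SPARC-like genes and 0.95 for fibronectin partners, where the median of all genes was -0.17. Leaving out WT replicate 1 moved the receptor median to 0.50, and leaving out WT replicate 2 moved the SPARC-like median to 0.54.

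The genes with patterns most like each member were found by the root mean square difference of centred log2 levels over the 5 libraries, among 10406 genes with a mean of at least 5 CPM. With so many genes and so few libraries, close matches may arise for any gene. Whether neighbours share a cell of origin or a regulator was not tested. Nov lay nearest to Bmp1, which encodes a procollagen protease, at 0.057, and to Il6st, the shared receptor chain of the interleukin 6 family, at 0.095. Bmp1 had WT values of 17.6 and 61.6 CPM and KO values of 39.3, 78.2 and 65.3. Tgfbi lay nearest to Col4a1, a basement membrane collagen, at 0.12 and to the sulphate transporter gene Slc26a2, also at 0.12. Fn1 lay nearest to Ptprb, a phosphatase of endothelial cells, at 0.23 and to Atf3, a stress-responsive transcription factor, at 0.27. Ptprb had WT values of 12.4 and 81.7 CPM and KO values of 165, 343 and 157.

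The remaining members had other nearest genes. Wisp2 lay nearest to Msr1 and Clec4n, both genes of macrophages, at 0.22 and 0.34, where Msr1 had WT values of 2.47 and 17.2 CPM and KO values of 18.9, 2.57 and 18.1. Those Msr1 values were low in WT replicate 1 and KO replicate 2, as Wisp2 was. Wisp1 lay nearest to Fam81a at 0.15 and to Aldh1b1, a mitochondrial aldehyde dehydrogenase, at 0.21, where Aldh1b1 had WT values of 158 and 10.9 CPM and KO values of 129, 136 and 126. Ctgf lay nearest to Fam115c at 0.096 and Tmf1 at 0.13, and Cyr61 to Mafk at 0.13 and Gas2l1 at 0.15. Postn lay nearest to Hivep2 at 0.094 and Synj1 at 0.15, and Sparc to Usp45 at 0.057 and Ube3b at 0.065. Among the members, Ctgf and Cyr61 differed by 0.97, more than Cyr61 and Nov (0.54) or Ctgf and Postn (0.53), and Wisp1 and Wisp2 were the least alike (2.40).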

How the data were processed

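Total RNA of mitral leaflets was amplified with the SMART-Seq v4 kit, per the labels' protocols. The deposited table holds raw counts of reads per gene for 5 libraries, which are whole numbers with a different total in each. The submitters' processing notes list FastQC 0.11.5, cutadapt 1.11, HTSeq and DESeq2, as well as mm10 and GRCm38 as builds. For the aligner and annotation, nothing is given in the sources used here. The authors' comparison columns were not used.

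The counts went into edgeR 4.0.16 under R 4.3.3 (filterByExpr, which kept 14244 genes, TMM scaling with factors of 0.837 to 1.07, and a two-sided robust quasi-likelihood F test over all genes with Benjamini-Hochberg adjustment). The fit was tested on simulated data. The SE is the fold change divided by the square root of F, on 3 residual degrees of freedom before moderation. No p-value is adjusted over a list alone. Alternatives used DESeq2 1.42.0 and limma-voom (limma 3.58.1), other scalings and filters, each library left out, the 3 libraries whose titles share a code, and a lowess trend with transcript length removed (lengths for 99.2% of genes tested). Positions and longest transcripts came from GENCODE M21 on GRCm38, which matched 22758 symbols directly and 951 through another symbol. Promoters came from RefSeq on GRCm38.p6. Reads were amplified and carry no molecular identifiers, so Poisson intervals and the floor of 3 reads cover counting error only. Replicate numbers follow the order of deposit and do not pair samples.

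The members and gene lists were chosen with earlier results of these data known. Named were the members, Ift88, the 2 genes of each list with the smallest p where none passed, and the 2 genes nearest to each member in pattern.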

Additional observations from a re-analysis of the deposited data

How the results depend on the processing

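No paired analysis was possible because the replicate numbers of the groups only follow the order of deposit and pair no samples. WT replicate 1 and the first 2 KO replicates share a code in their titles, which no label calls a batch, and with that code as a block only these 3 libraries would inform the comparison. In those 3 libraries 8 members did not overlap (41.2% of genes) and 6 had an unadjusted p under 0.05 (12.4%), with 1 WT library and so no spread within WT. Over all genes the edgeR test called 0, DESeq2 called 219, and leaving out 1 library at a time gave 0 to 245, the highest without WT replicate 1. Leaving out 1 library gave 5 to 8 members without overlap and 1 to 6 with an unadjusted p under 0.05, both highest without WT replicate 2 (30.6% and 10.4% of genes). The latter number was 4 with limma-voom (5.24% of genes) and 1 with the length trend removed (2% of genes), where 4 members did not overlap (8.24% of genes). The low end of 5 without overlap came without KO replicate 2 (16.9% of genes) or KO replicate 3 (21.5%). The low end of 1 with such a p came without KO replicate 1 (3.33%) or KO replicate 2 (2.16%). The direction turned for Wisp2 (-0.11) and Stab2 (-0.27) with limma-voom, for Stab2 (-0.33) in the libraries with the shared code, and for Rbms3 (-0.0016) and Stab1 (-0.31) with the length trend removed. With 1 library left out Cyr61 ran from -0.36 to 2.72, Nov from -0.10 to 1.78 and Wisp2 from -0.51 to 3.25. All 9 members stayed positive under the other scalings and filters. The median of all genes was -0.01, 0.10 with library totals alone, -0.17 with the length trend removed and 0.25 without WT replicate 2. Counting error was small beside the spread between libraries, and 2 WT libraries limit every comparison.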
